A study of Mus musculus with 4 samples.

Results

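The natriuretic peptide system of the heart was followed in hearts with and without *Jun* in striated muscle. It was defined by symbol as 7 genes, which are the peptides *Nppa*, *Nppb* and *Nppc*, the receptors *Npr1*, *Npr2* and *Npr3*, and the protease *Corin*. All 7 were on the array, with 9 probe sets among the 45037 tested and 3 of these for *Npr3*, out of 18193 genes with a probe set that names 1 gene. The arrays held RNA of whole hearts from 10-week-old mice of mixed 129/Ola-C57BL/6 strain, without surgery or treatment. Each mouse in either group carried floxed *Jun* alleles. Junf/f mice (2 arrays) had no Cre recombinase, and Jun delta mu mice (2 arrays) carried Cre under the muscle creatine kinase promoter, which removes *Jun* from striated muscle and leaves it in the other cells of the heart. According to the methods the mice were littermates, and no group with Cre but without floxed alleles was part of this series. The growth notes of the samples describe digested and plated ventricles, whereas the titles, source and methods name hearts, and the samples were taken as hearts.

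*Nppa* and *Nppb* encode atrial and brain natriuretic peptide, hormones that heart muscle secretes when its wall is stretched and that promote loss of salt and water and relax vessels. *Nppa* is most abundant in atria, and both genes are widely used as markers of hypertrophy because ventricles raise them under load. *Corin* encodes the membrane protease that cuts the precursor of atrial natriuretic peptide. *Npr1* encodes the receptor for both cardiac peptides and *Npr2* the receptor for C-type natriuretic peptide, the product of *Nppc*. Both are guanylyl cyclases that make cGMP, whereas *Npr3* encodes the receptor that takes up all of these peptides and clears them.

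*Nppa* and *Nppb* lie next to each other on chromosome 4, in the same orientation and with 0 genes listed between them in RefSeq. Their promoters are shown because within each genotype the heart with more signal of one gene had more of the other. This order is not particular to the 2 genes. *Nppc*, *Npr2* and the 3 *Npr3* probe sets were also higher on replicate 2 in both genotypes, as were 26.7% of all probe sets. Each line gives the 250 bases before the RefSeq start site on the plus strand of GRCm38.p6, from chr4:148000472-148000721 for *Nppa* and from chr4:147985650-147985899 for *Nppb*. Capitals mark matches to GATA sites (TGATAA or AGATAA), to the MCAT site of TEAD factors (CATTCC), or to sites of AP-1, the dimer of Jun and Fos proteins (TGANTCA or TGACNTCA, where N is any base), read on both strands.
Nppa: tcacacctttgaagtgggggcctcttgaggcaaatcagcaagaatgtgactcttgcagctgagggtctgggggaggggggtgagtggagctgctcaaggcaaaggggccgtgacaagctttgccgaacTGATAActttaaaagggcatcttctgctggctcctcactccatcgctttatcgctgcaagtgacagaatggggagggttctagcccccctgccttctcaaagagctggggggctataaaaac
Nppb: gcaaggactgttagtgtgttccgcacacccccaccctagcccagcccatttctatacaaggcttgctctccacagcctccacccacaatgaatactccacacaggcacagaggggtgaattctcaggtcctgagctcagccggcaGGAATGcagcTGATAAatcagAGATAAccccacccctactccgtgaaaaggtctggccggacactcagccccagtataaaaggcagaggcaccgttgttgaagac
Counted back from the start site, the *Nppa* promoter held TGATAA at -122 to -117. That of *Nppb* held TGATAA at -95 to -90, AGATAA at -84 to -79 and CATTCC on the opposite strand at -105 to -100. No match overlapped another. Neither promoter held TGANTCA or TGACNTCA in this window. Promoters were found for all 7 members. None of the 7 held TGANTCA, which occurs in 6.75% of 32851 RefSeq promoters of this length. The *Nppc* promoter held TGACNTCA, found in 7.49% of all promoters, at -51 to -44. Of all promoters, 7.94% held TGATAA, 9.99% held AGATAA and 12.6% held CATTCC. A match is a run of letters and was not tested as a binding site.

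*Jun* itself was lower in Jun delta mu hearts. By the brighter of its 2 probe sets the RMA signal (a background-corrected and normalized array signal on the log2 scale) was 8.30 and 9.00 on the Junf/f arrays and 7.02 and 7.14 on the Jun delta mu arrays. It differed by -1.57 (standard error 0.23, n = 2 per genotype), and its other probe set by -1.24. In whole hearts, fewer cells of a type and less RNA per cell cannot be told apart. Cardiac muscle genes were near the top of every array. Of 8 cardiomyocyte markers, 0 passed the threshold defined below, which 1.45% of all genes passed. *Myh6* lay between 14.67 and 14.72 and *Myl2* between 14.80 and 14.84 on the 4 arrays. By its mean *Myh6* lay above 99.98% of probe sets. Whether signals this near the top can still show a change was not tested. Array medians lay between 5.45 and 5.47. Junf/f replicate 1 stood apart, with correlations of 0.994 to 0.995 to the other arrays and 104 probe sets more than 2-fold from their mean, against 24 to 33 on each of the others. Jun delta mu replicate 2 stood apart in the atrial genes *Sln*, *Myl7* and *Myl4*, but not in every atrial marker. On that array the signal was 8.11 for *Sln*, against 3.81 to 4.15 on the others. It was 9.11 against 4.88 to 5.51 for *Myl7*, and 9.02 against 5.69 to 6.03 for *Myl4*.

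None of the 9 probe sets of the natriuretic system passed the study's threshold in Jun delta mu hearts. That threshold is a change above 1.3-fold together with an unadjusted p under 0.05, taken here from limma. Over all 45037 probe sets 1.53% passed it, 0.568% as higher and 0.959% as lower in Jun delta mu hearts. The largest difference was 0.42 on the log2 scale in *Nppa* and the next -0.27 in *Nppb*, neither of them beyond the spread between hearts. Of the 9 probe sets, 3 had a difference above 0 and 6 below 0. The median over the 7 genes was -0.01, against 0.01 over all 18193 genes. No member had an unadjusted p under 0.05 in limma. Over all probe sets 2326 had one, or 5.16%, and 0 reached an adjusted p under 0.05 with limma or with the methods' t-test. Between 2 and 2 arrays an exact permutation test cannot give a p below 0.333, so the values on each array are given first.

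**Figure D1:**
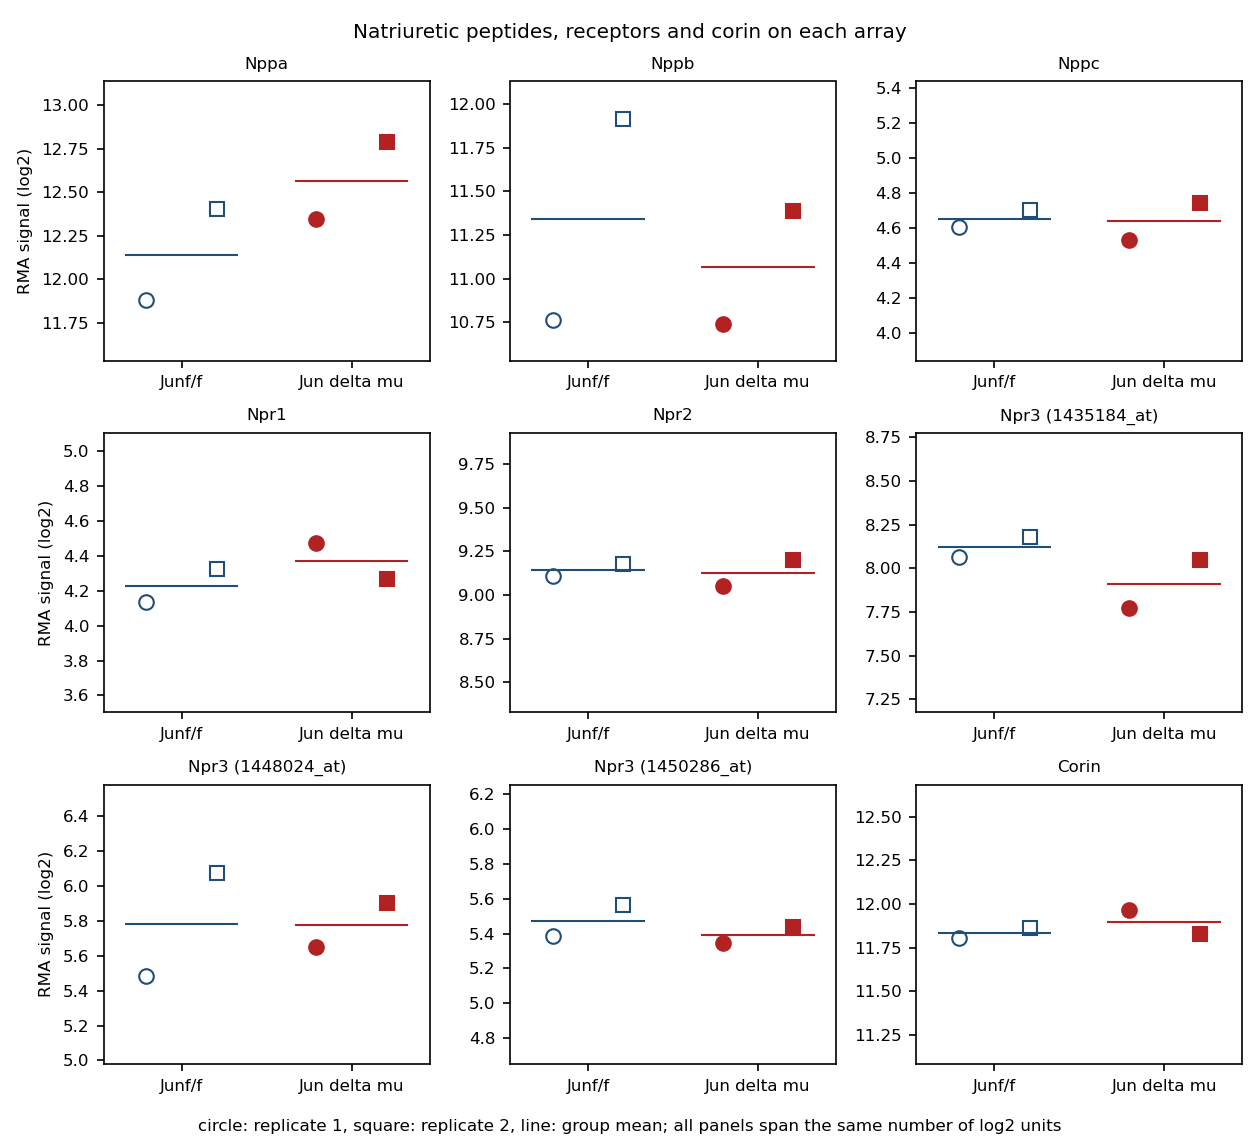
RMA signal (log2) of each probe set on each array, where open symbols stand for Junf/f and filled ones for Jun delta mu hearts, a circle is replicate 1, a square is replicate 2 and a line is the mean of a genotype; every panel spans the same number of log2 units. Replicate 2 lies above replicate 1 in both genotypes in every panel except those of *Npr1* and *Corin*. The groups overlap in every panel except that of *Npr3* 1435184_at.

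*Nppa* gave a strong signal on every array. It was 11.88 and 12.40 on Junf/f replicates 1 and 2 and 12.34 and 12.79 on Jun delta mu replicates 1 and 2, above 98.9% of probe sets by its mean. Of all probe sets, 0.939% spanned as much over the 4 arrays. The highest array was Jun delta mu replicate 2 and the lowest Junf/f replicate 1, while the remaining arrays, 1 of each genotype, differed little and in the opposite order, so that the groups overlapped. The means were 12.14 ± 0.37 in Junf/f and 12.57 ± 0.31 in Jun delta mu hearts (SD, n = 2). The difference of 0.42 (standard error 0.22, 95% interval -0.14 to 0.99, adjusted p = 0.896 with limma) is 1.34-fold, with an interval from 0.908-fold to 1.98-fold. It was smaller than the gap of 0.52 between the Junf/f hearts and about that of 0.44 between the Jun delta mu hearts. It was 0.16 without Junf/f replicate 1 and 0.20 without Jun delta mu replicate 2, and it was 0.64 without Jun delta mu replicate 1. Without Junf/f replicate 2 it was 0.68.

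*Nppb* varied between hearts of 1 genotype more than nearly all other probe sets, and 0.375% of them spanned as much over the 4 arrays. Its signal was 10.76 and 11.91 on the Junf/f arrays and 10.74 and 11.39 on the Jun delta mu arrays. Replicate 1 was low and replicate 2 high in each genotype, and Junf/f replicate 2 was the highest of all. The gap between the Junf/f hearts was 1.15, or 2.22-fold, and 0.171% of all probe sets had a gap as large between these arrays. That between the Jun delta mu hearts was 0.65, or 1.56-fold. The means were 11.34 ± 0.81 and 11.07 ± 0.46 (SD, n = 2). The difference was -0.27 (standard error 0.41, 95% interval -1.30 to 0.75, adjusted p = 0.950 with limma), which allows anything from 0.407-fold to 1.68-fold. Its direction depended on the hearts included. The difference was 0.30 without Junf/f replicate 2 and 0.05 without Jun delta mu replicate 1. It was -0.60 without Jun delta mu replicate 2 and -0.85 without Junf/f replicate 1.

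Within each genotype the heart with more *Nppa* signal was also the heart with more *Nppb* signal. *Nppa* was higher on replicate 2 by 0.52 in Junf/f and by 0.44 in Jun delta mu hearts. Of all probe sets, 26.7% were higher on replicate 2 in both genotypes, and the shared number does not pair the hearts by any label. All 9 member probe sets, of which 3 are of *Npr3*, were higher on Junf/f replicate 2 than on Junf/f replicate 1, as were 51.9% of all probe sets. Of the 9, 7 were higher on replicate 2 in both genotypes, against the 26.7% of all probe sets. The log2 signal of *Nppa* minus that of *Nppb* on the same array separated the genotypes, a comparison chosen after the values were seen. It was 1.12 and 0.49 on the Junf/f arrays and 1.60 and 1.40 on the Jun delta mu arrays, so that both Jun delta mu hearts lay above both Junf/f hearts. The mean was 0.80 ± 0.44 in Junf/f and 1.50 ± 0.14 in Jun delta mu hearts (SD, n = 2), a change of 0.70 or 1.62-fold (exact permutation test, two-sided, p = 0.333, the smallest that these arrays allow). It was 0.38 without Junf/f replicate 2 and 1.01 without Junf/f replicate 1. The groups did not overlap for 33.9% of all probe sets, with 17.3% higher in Jun delta mu hearts, and an unequal change of the genes is not shown by these arrays.

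Atrial tissue is rich in *Nppa*, and atrial markers were read beside the peptides. Of 12 atrial markers, 0 passed the study's threshold, against 1.45% of all genes. The median difference was 0.09, and 6 of 12 were highest on Jun delta mu replicate 2. The share of all genes highest on that array was not counted. Their summed signal on the linear scale was 2991 and 2898 on the Junf/f arrays and 2837 and 4139 on the Jun delta mu arrays. RMA signals do not reach 0, so they do not show whether a marker was absent. Of the defining markers *Sln*, *Myl7* and *Myl4* stood far apart on Jun delta mu replicate 2, where *Nppa* was also highest. *Bmp10* lay between 6.50 and 6.64 and *Mybphl* between 5.28 and 5.48 on the 4 arrays, each also highest on Jun delta mu replicate 2. *Nppb* was highest on Junf/f replicate 2, an array where *Sln* was at 4.15. The part of atrial tissue in the *Nppa* signal was not tested.

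**Figure D2:**
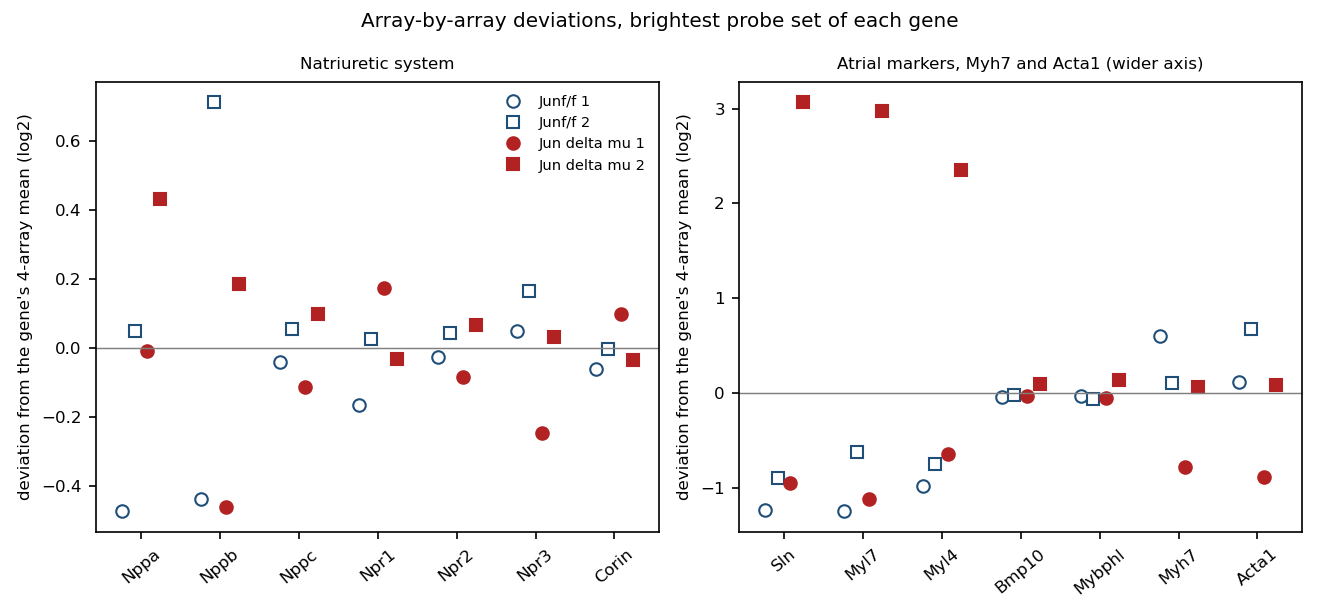
Deviation of each array from the gene's mean over the 4 arrays (log2 RMA signal), for the 7 members on the left and for 5 atrial markers, Myh7 and Acta1 on the right, where the axis is wider; open symbols are Junf/f and filled symbols Jun delta mu hearts. Jun delta mu replicate 2 stands far above the other arrays for Sln, Myl7 and Myl4, whereas Nppb is highest on Junf/f replicate 2.

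*Nppc*, the peptide made mainly outside heart muscle, had a weak signal with nearly equal means in both genotypes. It was 4.60 and 4.70 on the Junf/f arrays and 4.53 and 4.75 on the Jun delta mu arrays, below the median of each array, and Jun delta mu replicates 1 and 2 were the lowest and the highest. The difference was -0.01 (standard error 0.11, 95% interval -0.29 to 0.26, adjusted p = 0.999 with limma). The values carry no detection call, so it is not known whether this probe set read above background.

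Neither cyclase receptor passed the study's threshold. *Npr1*, the receptor of both cardiac peptides, was at 4.13 and 4.32 on the Junf/f arrays and at 4.47 and 4.27 on the Jun delta mu arrays, below the array medians. The groups overlapped and the difference was 0.14 (standard error 0.12, 95% interval -0.16 to 0.44, adjusted p = 0.912 with limma). The interval holds changes between 0.895-fold and 1.36-fold, and it is not known whether this probe set read above background. *Npr2*, the receptor of the C-type peptide, had a stronger signal of 9.11 and 9.18 on the Junf/f arrays and 9.05 and 9.20 on the Jun delta mu arrays. All 4 hearts lay within 0.15 of each other. The difference was -0.02 (standard error 0.10, 95% interval -0.26 to 0.23, adjusted p = 0.995 with limma), so that the interval holds changes between 0.833-fold and 1.17-fold.

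*Npr3*, the clearance receptor, was the only member whose groups did not overlap, and this by 1 of its 3 probe sets. By the brightest, 1435184_at, it was at 8.06 and 8.18 in Junf/f and at 7.77 and 8.05 in Jun delta mu hearts. Jun delta mu replicate 1 was clearly the lowest, while replicate 2 lay within 0.02 of the lower Junf/f heart. The difference was -0.21 (standard error 0.12, 95% interval -0.53 to 0.10, adjusted p = 0.896 with limma), or 0.863-fold. It was -0.07 without Jun delta mu replicate 1 and -0.35 without replicate 2. The groups were separate in this direction for 16.7% of all probe sets. The dimmer probe sets overlapped. Probe set 1448024_at was at 5.49 and 6.08 against 5.65 and 5.90 and differed by -0.01 (95% interval -0.54 to 0.53). Probe set 1450286_at was at 5.38 and 5.56 against 5.34 and 5.44 and differed by -0.08 (95% interval -0.35 to 0.18). Taken as the mean of the 3 probe sets the difference was -0.10.

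*Npr3* is best known from endocardium, and *Nppc* from endothelium. Of 10 endothelial markers 0 passed the study's threshold and 8 were below 0, with a median difference of -0.14. Their summed linear signal was 6460 and 6772 in Junf/f and 6026 and 6108 in Jun delta mu hearts. Of 6 endocardial markers 0 passed and 5 were below 0, with a median of -0.10 and sums of 937 and 940 against 870 and 877. Of 9 markers of smooth muscle and pericytes, *Cnn1* alone passed, as lower by 0.67, and the median was -0.22, with sums of 19172 and 19005 against 18235 and 18814. The sums of these lists and the brightest *Npr3* probe set, but not its dimmer ones, were lower on both Jun delta mu arrays. So were 16.7% of all probe sets. The mean log2 level of the endocardial list was 6.70 and 6.72 in Junf/f and 6.69 and 6.62 in Jun delta mu hearts. Of all 18193 genes 8688 were below 0, and 1.45% passed the threshold. The part of these cell types in the *Npr3* value was not tested.

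*Corin*, the protease, was strongly measured and nearly level. Its signal was 11.80 and 11.86 on the Junf/f arrays and 11.96 and 11.83 on the Jun delta mu arrays, above 98.4% of probe sets by its mean. The arrays spanned 0.16 and the groups overlapped. The difference was 0.06 (standard error 0.10, 95% interval -0.18 to 0.30, adjusted p = 0.950 with limma), which limits it to changes between 0.885-fold and 1.24-fold.

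**Figure D3:**
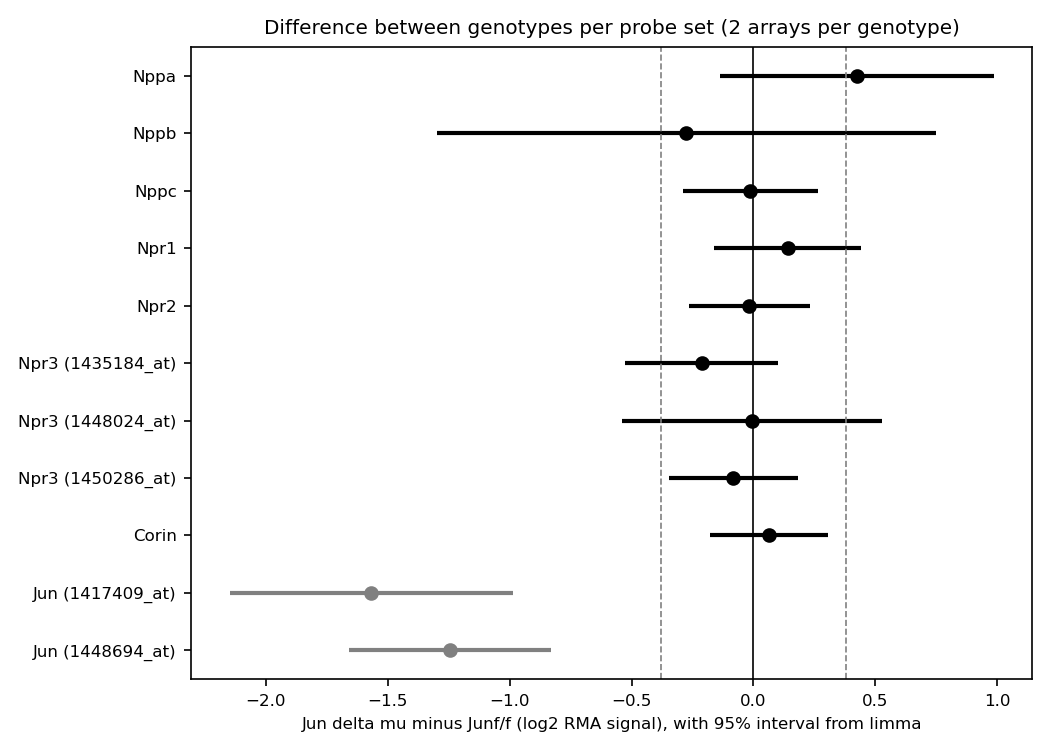
Difference between genotypes, Jun delta mu minus Junf/f (log2 RMA signal), for the 9 member probe sets in black and for both Jun probe sets in grey; points are differences of means of 2 arrays, bars 95% intervals from limma, and dashed lines mark 1.3-fold in either direction. All 9 intervals of the members include 0, the widest being that of Nppb, and both Jun intervals lie below it.

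Genes that process the peptides or act downstream of their receptors were examined by their brightest probe sets. Of 33 measured genes in this list 1 was higher past the study's threshold, 0 were lower and 32 did not pass, with a median of 0.00. Over all genes 1.45% passed, 0.665% as higher and 0.786% as lower. The gene that passed was *Mep1a*, a subunit of meprin A, a protease that can cut brain natriuretic peptide. Its signal was 4.39 and 4.23 in Junf/f and 4.74 and 4.79 in Jun delta mu hearts, a difference of 0.46 (standard error 0.10, adjusted p = 0.896 with limma). The signal lay below the array medians, and the gene did not pass without Junf/f replicate 2. *Furin*, a protease that cuts the precursor of brain natriuretic peptide, differed by 0.07, and *Pcsk6*, which activates corin, by 0.02. Neprilysin (*Mme*), which degrades the peptides, was at 7.03 and 6.72 in Junf/f and 6.50 and 6.61 in Jun delta mu hearts. Its difference of -0.32 stayed under 1.3-fold, and it was -0.48 without Junf/f replicate 2. *Prkg1*, the cGMP-dependent kinase, differed by -0.10. Among phosphodiesterases, which break cGMP down, *Pde2a* differed by -0.30, with 10.36 and 10.21 against 9.93 and 10.05, and *Pde5a* by -0.12. *Mrvi1*, now named *Irag1*, a substrate of the cGMP-dependent kinase in smooth muscle, differed by -0.38 and did not pass. Its difference was -0.56 without Jun delta mu replicate 2 and likewise -0.56 without Junf/f replicate 2. *Rgs2*, a regulator of G proteins that the same kinase activates, was at 10.74 on Junf/f replicate 1 and between 9.52 and 9.97 on the other arrays. Its difference was -0.18 and turned with the array left out, from 0.43 without Junf/f replicate 1 to -0.79 without Junf/f replicate 2.

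Apart from *Jun*, which is given above and was not in this list, 31 measured genes known to act on the *Nppa* or *Nppb* promoters were examined. None passed the study's threshold, which 1.45% of all genes passed. Of the 31, 12 were above 0 and 19 below, with a median of -0.03. Of all 18193 genes, 9502 were above 0 and 8688 below. *Gata4*, whose family binds the GATA sites shown above, differed by 0.11, with 8.69 and 9.26 in Junf/f and 9.12 and 9.06 in Jun delta mu hearts. Without Junf/f replicate 2 the difference was 0.40. *Nkx2-5*, a cardiac homeobox factor, differed by 0.17 and *Tead1*, which binds MCAT sites, by 0.02. *Hand2*, a helix-loop-helix factor of the heart, had the largest difference of the list, at 10.51 and 9.98 against 10.79 and 10.54. It was higher by 0.42 (standard error 0.20, adjusted p = 0.896 with limma) and did not pass. The difference was 0.68 without Junf/f replicate 1. Among relatives of c-Jun that can form AP-1, *Jund* was at 9.67 and 9.66 against 9.91 and 9.90, a difference of 0.24 that is under 1.3-fold. *Junb* differed by -0.06.

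Markers of hypertrophy other than *Nppa* and *Nppb* were read in the same way. None of 12 measured genes in this list passed the study's threshold, against 1.45% of all genes. Of the 12, 4 were above 0 and 8 below, with a median of -0.01. β-myosin heavy chain (*Myh7*), a fetal myosin, was at 9.17 and 8.68 in Junf/f and 7.79 and 8.63 in Jun delta mu hearts, a difference of -0.72. Skeletal α-actin (*Acta1*) was at 10.75 and 11.30 against 9.74 and 10.71, a difference of -0.80. Both were lower on each Jun delta mu array than on each Junf/f array, as were 16.7% of all probe sets. So were others of this list, among them *Atp2a2*, which differed by -0.01. Without Jun delta mu replicate 2 the differences of *Myh7* and *Acta1* were -1.14 and -1.28. *Ccn2*, which encodes connective tissue growth factor, had the largest rise of the list. It was at 8.94 and 8.91 in Junf/f and 8.90 and 9.87 in Jun delta mu hearts, a difference of 0.46 that did not pass. Its rise lay on Jun delta mu replicate 2 alone. *Ankrd1*, a stretch-responsive ankyrin repeat protein, lay between 12.92 and 13.05 on all arrays. *Rcan1*, a target of calcineurin signalling, differed by 0.01. *Atp2a2*, the calcium pump of the sarcoplasmic reticulum, differed by -0.01 at a signal above 99.99% of probe sets. Whether so high a signal can still show a change was not tested.

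**Figure D4:**
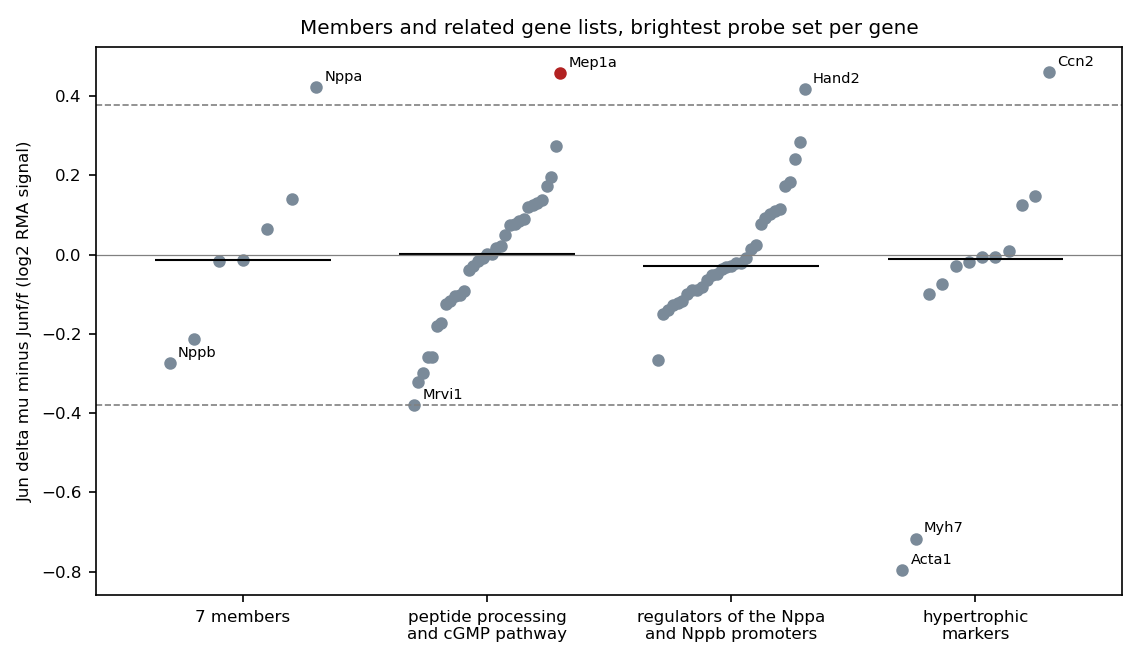
Difference between genotypes, Jun delta mu minus Junf/f (log2 RMA signal), by the brightest probe set of each gene, for the 7 members and 3 related lists; each point is a gene, black lines are list medians, dashed lines mark 1.3-fold and red marks genes past the study's threshold. Mep1a is the only gene past it, and all 4 medians lie close to 0.

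The genes whose array pattern was most like that of *Nppa* were *Islr*, *Fmod* and *9630013A20Rik*, among 18186 genes that are no members. After each gene was centred on its mean over the 4 arrays, they differed from *Nppa* by a root mean square of 0.05, 0.05 and 0.06 on the log2 scale. *Islr* was at 8.20 and 8.75 in Junf/f and 8.67 and 9.00 in Jun delta mu hearts, and *Fmod*, which encodes the matrix protein fibromodulin, at 5.46 and 5.99 against 5.83 and 6.25. *Nppb* stood at 0.42 from *Nppa* by the same measure. No gene came as close to *Nppb*, where the nearest were *Tnfrsf8*, *Wwox* and *Fam47e* at 0.22, 0.23 and 0.23. With 4 arrays and so many genes, near matches of this kind are a description of these arrays. The other members spanned under 0.5 over the arrays by their brightest probe sets and were not matched.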

How the data were processed

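RNA of 2 Junf/f and 2 Jun delta mu hearts was hybridised to Affymetrix GeneChip Mouse Genome arrays, 1 heart per array, and raw data were processed with AGCC software per the methods. RMA and the R package oligo are named in the submitters' processing notes, with no version of either. Deposited values were log2 RMA signals per probe set, background-corrected, normalized and summarised by the authors, for 45101 probe sets with 0 missing values and no detection calls. RMA compresses differences of weak signals, and probe sets of different genes cannot be compared as amounts.

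The 64 control probe sets were left out. The platform annotation names 1 gene for 34945 of the other 45037 probe sets, several for 932 and none for 9160. Genotype was the only term in a limma fit to all 45037 (version 3.58.1 under R 4.3.3, two-sided, eBayes after lmFit, 2 residual degrees of freedom), with Benjamini-Hochberg adjustment over all. Tables and figures were made with Python 3.11.15, pandas 2.3.3 and matplotlib 3.10.9. A gene is represented by its probe set with the highest mean signal. The number of arrays limits the precision. The limma p-values weigh a probe set's own spread between these hearts (2 residual degrees of freedom) with that of all probe sets (3.46 prior degrees of freedom). They take in no spread beyond these hearts. Promoters came from RefSeq (GRCm38.p6). The fit was tested on simulated data.

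The study's threshold (1.3-fold, unadjusted p of 0.05) was applied to the limma fit, whereas the methods' t-test was an alternative. The genes named are the 7 members, *Jun*, list genes past the threshold with up to 6 others per list for their textbook role, markers of the tissue, and the 3 nearest matches of members spanning at least 0.5 over the arrays. *Mrvi1*, *Rgs2*, *Ccn2* and the genes named from lists of fibroblasts, smooth muscle and blood were named after their values were seen. Members and lists (peptide processing and cGMP pathway, promoter regulators, hypertrophic markers, and markers of atrium, ventricle, cardiomyocytes, endothelium, endocardium, fibroblasts, smooth muscle and pericytes, nerve, macrophages and blood) were chosen with earlier results of these data known. The alternatives were the methods' t-test, array weights, a trended robust prior, a block for replicate number, a filter on the dimmest 40% of probe sets, 3 further normalizations, the mean or median over a gene's probe sets and leaving out each array, which assumes that the array left alone varies as the other genotype does.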

Additional observations from a re-analysis of the deposited data

How the results depend on the processing

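The differences of the 7 members were computed under each alternative, except that the filter on the dimmest 40% of probe sets removed *Nppc* and *Npr1* and that, among the members, the mean and median over probe sets apply to *Npr3* alone. Leaving out each array in turn, the difference ranged from 0.16 to 0.68 for *Nppa*, -0.85 to 0.30 for *Nppb*, -0.12 to 0.0927 for *Nppc*, -0.0915 to 0.0579 for *Npr2*, -0.0034 to 0.13 for *Corin*, 0.04 to 0.24 for *Npr1* and -0.35 to -0.07 for the brightest *Npr3* probe set. For the dimmer *Npr3* probe sets it ranged from -0.30 to 0.29 (1448024_at) and from -0.17 to 0.0075 (1450286_at). The signs of *Nppb*, *Nppc*, *Npr2*, *Corin* and both dimmer *Npr3* probe sets therefore rest on single arrays. *Npr2* also turned to 0.0038 with quantile normalization. By its brightest probe set *Jun* stayed between -1.92 and -1.22.

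Replicate numbers are shared between genotypes, but no label pairs the hearts, and deviations of same-numbered arrays correlated at 0.03 over 45037 probe sets. With replicate number as a block *Nppa* passed at 0.42 (adjusted p = 0.861 with limma). The block called 1 member, 1 promoter regulator (*Hand2*) and 1 hypertrophic marker (*Acta1*) where the fit without it called 0, and 683 probe sets in place of 688.

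The count of members past the threshold ranged from 0 to 1 when an array was left out, that of pathway genes from 1 to 3, of promoter regulators from 0 to 3 (*Gata4*, *Hand1* and *Fos* without Junf/f replicate 2) and of hypertrophic markers from 0 to 2. The trended robust prior called 2 hypertrophic markers, *Myh7* and *Acta1*. Removing the dimmest 40% of probe sets left 0 pathway genes, because *Mep1a* was removed. Over all probe sets 200 passed with the methods' t-test, and 739 to 3452 when an array was left out, the most without Junf/f replicate 2. Under the t-test, the prior, array weights, the filter and the 3 normalizations no member passed. The change of the *Nppa* minus *Nppb* difference ranged from 0.38 to 1.01 when an array was left out. The cause of these changes was not tested. *Nppc*, *Npr1* and *Mep1a* lay below the array medians, and the values carry no detection calls.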

Other observations

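Of 9 fibroblast markers *Mfap5* and *Pi16* were higher past the study's threshold, 0 were lower, and the median was 0.21. Over all genes 1.45% passed, 0.665% as higher and 0.786% as lower. The summed linear signal of the 9 fibroblast markers was 19377 and 17580 in Junf/f and 18768 and 20292 in Jun delta mu hearts. Of these markers 7 of 9 were highest on Jun delta mu replicate 2, and the share of all genes highest on that array was not counted. The 5 ventricular markers had 0 past the threshold and a median of -0.06. None of 6 macrophage markers (median -0.01) and none of 5 measured nerve markers (median 0.05) passed. Of 2 measured blood markers *Alas2* was lower past the threshold, by 0.49.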
